A study of Mus musculus with 4 samples.

Results

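Synaptic-transcript neurons were taken from 4 mouse medulloblastomas as single-cell RNA profiles. A filtered barcode had at least 500 unique molecular identifiers (UMIs, each standing for 1 captured RNA molecule), at least 200 detected genes and at most 10% mitochondrial UMIs. A barcode was selected when its UMIs summed to 3 or more over Grin2b, Gria2, Snap25, Syt1, Meg3 and Rbfox3, the synaptic sum, and to 1 or fewer over 9 mitotic genes (Mki67, Top2a, Cenpf, Cenpe, Ube2c, Prc1, Tpx2, Hmmr and Aspm). These counts chose 281 of 2288 filtered barcodes, out of 6734 barcodes deposited for the 4 tumours. The levels of these 15 genes in the selected cells are therefore a description and carry no test. The comparison class, early neurons, had 3 or more UMIs over Neurod1, Neurod2, Cntn2, Dpysl3 and Nhlh1 and 1 or fewer over the synaptic sum, and held 318 cells, whose levels of these early genes are likewise set by the rule.

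The mice were untreated and were taken at postnatal day 16, and the 4 of them shared 1 genotype: hGFAP-Cre, the SmoM2 allele, and homozygous floxed alleles of AMPK genes, written Prkaa1fl/fl and Prkaa2fl/fl. SmoM2 is a constitutively active form of the Sonic hedgehog (SHH) transducer Smoothened. Prkaa1 and Prkaa2 encode the catalytic subunits of the energy sensor AMPK, and their floxed alleles are removed by Cre. hGFAP-Cre acts in neural stem cells and their descendants, which include granule cells and glia, so recombination is not limited to granule cells, and every cell of that lineage in these mice carried the same alleles. The stated comparison with tumours that kept Prkaa1 and Prkaa2 was not analysed here. Brains were divided sagittally, and cerebellum or tumour tissue from the side not fixed for histology was dissociated with papain and run through Drop-seq, which captures RNA at its 3′ end. The labels number the tumours but do not say whether each came from a different litter or day. The main p-values compare classes within tumours, so they measure how the class difference varies over these 4 samples, beside counting error.

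SHH medulloblastoma arises from cerebellar granule cell progenitors. In normal development these progenitors divide under SHH in the outer cerebellum, leave the cell cycle, switch on factors such as Neurod1 and the adhesion molecule Cntn2, extend axons, migrate inward and then assemble glutamatergic synapses and express GABA-A receptor subunits typical of mature granule neurons. The 6 synaptic genes belong to different steps of that sequence. Gria2 encodes an AMPA receptor subunit that limits calcium entry, Grin2b an NMDA receptor subunit of young neurons, Snap25 a membrane-fusion protein of the release machinery, and Syt1 the calcium sensor for vesicle release. Rbfox3 encodes the splicing factor known as NeuN, and Meg3 is an imprinted long non-coding RNA.

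Of the 6 genes, Gria2, Syt1, Meg3 and Rbfox3 matched entries in the RefSeq promoter table (build GRCm38.p6). The 250 bases upstream of the start were searched on both strands for CGGACAG, letters from the core of the RE1 element that the neuronal-gene repressor REST binds, and for TGACGTCA, the cAMP response element. Gria2 is shown because it supplied the most UMIs of the synaptic sum, and Meg3 because it is the only non-coding member. The Gria2 stretch is chr3:80802836-80803085 on the minus strand and the Meg3 stretch is chr12:109540746-109540995 on the plus strand. Capitals mark the match, which for Gria2 is CGGACAG read on the opposite strand and for Meg3 is TGACGTCA.
Gria2: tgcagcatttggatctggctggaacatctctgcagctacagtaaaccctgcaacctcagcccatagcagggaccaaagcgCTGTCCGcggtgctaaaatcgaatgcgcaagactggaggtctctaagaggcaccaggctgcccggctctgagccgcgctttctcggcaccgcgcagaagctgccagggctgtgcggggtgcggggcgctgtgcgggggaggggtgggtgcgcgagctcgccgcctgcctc
Meg3: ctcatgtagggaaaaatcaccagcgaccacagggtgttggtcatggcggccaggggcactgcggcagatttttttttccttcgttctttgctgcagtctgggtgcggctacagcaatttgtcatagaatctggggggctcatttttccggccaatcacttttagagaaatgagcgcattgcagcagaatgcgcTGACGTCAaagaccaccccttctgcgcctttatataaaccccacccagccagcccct
The Gria2 match lay 170 to 164 bases before the start and the Meg3 match 57 to 50 bases before it. CGGACAG was present in 2.11% of 32851 promoter stretches of that length and TGACGTCA in 1.55%. The second listed Meg3 start, at chr12:109545148-109545397, held neither motif. Of the 2 listed Syt1 starts, 1 also held CGGACAG, and the stretch for Rbfox3 held neither motif. A match is a run of letters and was not tested as a binding site. The genes themselves lie downstream in GRCm38 (GENCODE M21), Gria2 on chromosome 3 from 80681450 to 80802835 and the lincRNA gene Meg3 on chromosome 12 from 109541001 to 109571726.

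The number of selected cells differed widely between tumours. Tumour 1 held 111 selected cells of 370 filtered (30.0%, exact 95% interval 25.4 to 35.0), tumour 2 held 42 of 291 (14.4%, 10.6 to 19.0), tumour 3 held 52 of 561 (9.27%, 7.0 to 11.98) and tumour 4 held 76 of 1066 (7.13%, 5.66 to 8.84). The mean share was 15.2% ± 10.3 (SD, n = 4). Tumour 1 stood above the other 3, and its interval overlapped none of theirs. The share followed the same order after each cell was thinned to 500 UMIs, at 18.4%, 9.97%, 5.70% and 3.096%. Intervals cover counting error only. Among cells with at most 1 mitotic UMI that met either the synaptic or the early rule, the selected class made up 85.4%, 73.7%, 44.8% and 40.9% of tumours 1 to 4.

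The libraries fell into 2 pairs before any cells were selected. Log2 CPM (a gene's UMIs relative to the total of its library) profiles correlated across genes with r of 0.84 between tumours 1 and 2 and 0.91 between tumours 3 and 4, and with r of 0.55 to 0.74 across the pairs. Tumours 1 and 2 had 12.3% and 15.2% of all UMIs in mitochondrial transcripts, while tumours 3 and 4 had 2.79% and 2.43%. The labels give no batch for this split. A single barcode sequence was shared, between tumours 2 and 4. Total deposited UMIs ran from 666213 to 1451644 per tumour. In the selected cells Prkaa1 had 2 UMIs in all (1, 0, 0 and 1 in tumours 1 to 4) and Prkaa2 had 2 (2, 0, 0 and 0), and since 3′ reads may lie outside the deleted exons, these counts check no label.

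Gria2 was the largest part of the synaptic sum. The 281 cells held 1329 synaptic UMIs, of which Gria2 gave 602 (45.3%), Rbfox3 253 (19.0%), Snap25 222 (16.7%), Meg3 100 (7.5%), Grin2b 98 (7.4%) and Syt1 54 (4.1%). Gria2 ran at 2830, 2827, 1877 and 1317 CPM in the selected cells of tumours 1 to 4. Snap25 ran at 639, 565, 1135 and 939 CPM. Over all filtered cells Snap25 stood at 369, 329, 295 and 200 CPM, so its order between tumours was not that of the selected cells. Rbfox3 was the most even of the 6, at 818, 1103, 982 and 939 CPM. Gria2 had a UMI in 238 of the 281 cells, Rbfox3 in 153, Snap25 in 129, Grin2b in 65, Meg3 in 57 and Syt1 in 39. Only 38 cells passed on a single gene, 30 of them on Gria2, and 121 cells held UMIs of 3 or more of the 6 genes. With Gria2 left out of the sum, 126 cells reached 3 UMIs.

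**Figure D1:**
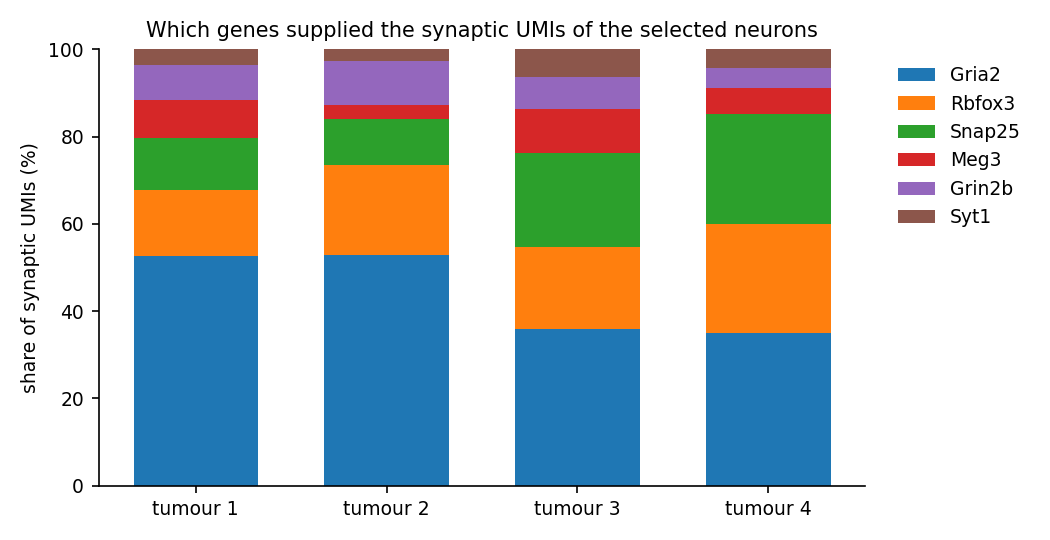
Share of the synaptic UMIs (percent, stacked bars) that each of the 6 synaptic genes supplied in the selected neurons of each tumour. Gria2 is the largest block in every tumour, and Snap25 takes a larger block in tumours 3 and 4 than in tumours 1 and 2.

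Most selected cells sat close to the threshold. A synaptic sum of exactly 3 was found in 100 cells, a sum of 4 or 5 in 109 and a sum of 6 or more in 72, with a highest value of 18 in tumour 1. Just outside, 187 cells with at most 1 mitotic UMI had a synaptic sum of 2. Their median depth was 782 UMIs, against 786 in the cells with exactly 3.

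Dividing cells also carried synaptic UMIs. Among cells with 3 or more mitotic UMIs, 37.5% of tumour 1, 30.1% of tumour 2, 10.1% of tumour 3 and 8.29% of tumour 4 had a synaptic sum of 3 or more. Among cells with at most 1 mitotic UMI the shares were 55.5%, 36.5%, 15.8% and 13.7%. The dividing cells were deeper, with median UMIs of 940, 854, 993 and 1292 against 733, 739, 738 and 819. At an equal 500 UMIs per cell the shares were 14.2%, 6.72%, 2.94% and 0.34% in dividing cells and 29.8%, 20%, 8.47% and 4.90% in the others. The non-dividing share was the higher of the pair in each of the 4 tumours at both depths. In barcodes under 500 UMIs, which are too shallow to be taken as cells here, the synaptic genes made up 2528, 1393, 1887 and 1505 CPM, against 2995, 2190, 1233 and 851 CPM over the filtered cells of the same tumours. How much of the synaptic sum came from free RNA was not tested.

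**Figure D2:**
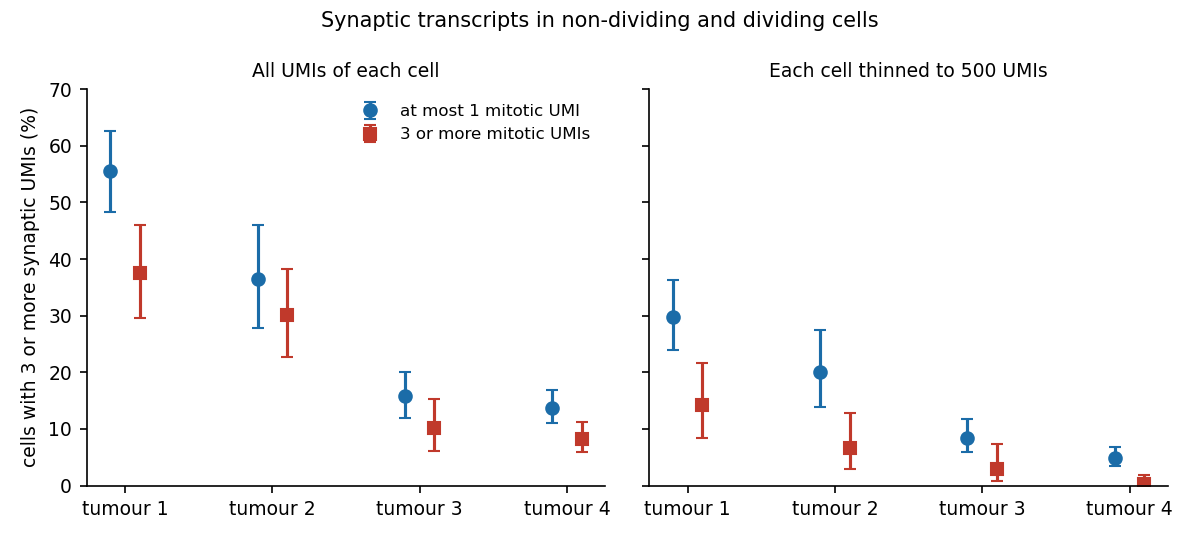
Percent of cells with 3 or more synaptic UMIs (vertical axis) among cells with at most 1 mitotic UMI (circles) and with 3 or more mitotic UMIs (squares) in each tumour, with exact 95% intervals, using all UMIs (left) or each cell thinned to 500 UMIs (right). The non-dividing cells lie above the dividing cells in all 4 tumours, and both shares are highest in tumour 1.

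Granule lineage transcripts were present in nearly all selected cells, but the defining mature genes Gabra6 and Cbln3 were almost absent. At least 1 UMI of the granule identity list (Zic, Nfi, Barhl, Meis, Pax6, Uncx and Reln genes) was found in 279 of the 281 cells, a share that does not set them apart from early neurons, at 96.7% to 100% per tumour. That list summed to 11585, 12045, 13947 and 15578 CPM in tumours 1 to 4 and to 12041, 11886, 13777 and 11816 CPM in early neurons. Gabra6, the GABA-A receptor subunit that defines mature granule neurons, had 3 UMIs, all in tumour 3, and Cbln3, a synaptic organiser partner specific to granule cells, had 1. The wider list of 22 mature granule genes, 21 of them detected, summed to 940, 622, 1375 and 733 CPM in selected cells and to 883, 675, 531 and 513 CPM in early neurons, higher in 3 of 4 tumours. In selected cells it was carried mainly by Mef2a (57 UMIs), Rbfox1 (36) and Olfm1 (31), which other neurons express too. Early transcripts were still found, as 213 of the 281 cells also had 3 or more UMIs of the early genes, and Neurod1 ran at 2906, 3393, 4147 and 4112 CPM in selected cells. With Gabra6 and Cbln3 so few, the label of late granule neurons was not taken over, and the cells are named here by their rule. The rule asks only for the synaptic sum and the mitotic limit. The word neurons is therefore a name for all 281 cells and was not tested cell by cell.

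Markers of Purkinje, endothelial, mural and microglial cells were few. Astrocyte and oligodendrocyte genes were not, with mean sums of 970 and 991 CPM in selected cells beside 918 CPM for the mature granule list. Purkinje cell genes summed to 301, 198, 349 and 367 CPM in selected cells and to 321, 225, 196 and 211 CPM in early neurons, with 5 of 8 detected and Pcp2, Calb1 and Car8 at 0. Of 12 interneuron genes on the list the tables held 2. Lhx1, a transcription factor gene of that list, ran at 799, 735, 502 and 550 CPM in selected cells and at 1124, 996, 895 and 659 CPM in early neurons, lower within each tumour (log2 fold change -0.48, edgeR adjusted p = 0.208). Among the selected cells, 26 carried 3 or more UMIs of the oligodendrocyte list, 17 of the astrocyte list, 1 of the endothelial list and 1 of the mural list, or 40 of 281 cells in all. The matching count in early neurons was 27 of 318. Astrocyte genes summed to 1674, 961, 524 and 722 CPM in selected cells and to 522, 482, 504 and 508 CPM in early neurons, higher in 4 of 4 tumours, with 10 of 11 genes detected and Gdf10 at 0. In tumour 1 a single cell held 63 of the 86 Apoe UMIs. Oligodendrocyte genes summed to 828, 792, 524 and 1821 CPM against 883, 707, 727 and 502 CPM, with 11 of 12 detected and Mog at 0. Endothelial genes had 37 UMIs, 33 of them Pltp, with Cldn5, Flt1 and Cdh5 at 0.

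The selected cells were compared with early neurons in UMIs summed per tumour and class, leaving out the 20 genes of the rule. Genes that rose included the cytoskeletal genes Mapt, Ank2 and Dcx and the phosphatase gene Ppp3ca. Genes that fell included the chromatin genes Anp32e, Smc2 and Smarca5. Of 1209 genes tested with edgeR's quasi-likelihood test with the tumour as a block and Benjamini-Hochberg adjustment at 0.05, 12 rose (0.993%) and 15 fell (1.24%), or 2.23% in all, and 170 had an unadjusted p under 0.05. The classes were built from the same cells, so these p-values say how the sums differ and not that the classes exist. The early rule sets no mitotic limit: 110 of the 318 early neurons (34.6%) had 2 or more mitotic UMIs, which no selected cell had, so part of this contrast is between non-dividing and dividing cells. With upper-quartile scaling 19 rose and 11 fell, so the share that rose went from 44.4% to 63.3%.

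The axonal cytoskeleton supplied 3 of the 12 that rose, from 31 tested members, where 0.993% of all tested genes rose. Mapt, which encodes the microtubule protein tau, ran at 386, 311, 829 and 481 CPM in the selected cells of tumours 1 to 4 and at 241, 225, 238 and 130 CPM in early neurons. Every selected value lay above every early value, and the log2 fold change was 1.48 (SE 0.28, edgeR adjusted p = 0.000325). Ank2, whose product ankyrin-B ties membrane proteins to the axonal spectrin lattice, ran at 1279, 735, 917 and 710 CPM against 401, 610, 448 and 297 CPM, again without overlap, with a log2 fold change of 1.09 (SE 0.22, edgeR adjusted p = 0.000455). Dcx, which encodes the microtubule protein doublecortin of migrating neurons, ran at 527, 848, 1026 and 1042 CPM against 482, 578, 573 and 346 CPM. It was higher within each tumour while the groups overlapped, with a log2 fold change of 0.96 (SE 0.21, edgeR adjusted p = 0.00238). Of 45 measured cytoskeleton genes, 31 were tested, with a median log2 fold change of 0.23 beside -0.02 over all genes. Against early neurons with at most 1 mitotic UMI the median was 0.11 over 30 genes beside 0.02 over all, with 0 called, and the summed list was higher in 2 of 4 tumours.

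Other neuronal genes that rose in 4 of 4 tumours were Grik2, Ppp3ca, Celf4 and Aplp2. Grik2, a kainate-type glutamate receptor subunit, ran at 310, 226, 306 and 195 CPM in selected cells and at 120, 64.2, 140 and 43.2 CPM in early neurons, without overlap (log2 fold change 1.59, SE 0.39, edgeR adjusted p = 0.00696). It passed the filter through the selected class alone, and with no filter on low counts its edgeR adjusted p was 0.0640. Ppp3ca, the catalytic subunit of the calcium-activated phosphatase calcineurin, ran at 423, 537, 1353 and 871 CPM against 361, 289, 657 and 378 CPM, with overlapping ranges (log2 fold change 0.97). Celf4, a neuronal RNA-binding protein, rose by a log2 fold change of 0.88 and Aplp2, a relative of the amyloid precursor protein, by 1.08. Malat1, an abundant nuclear non-coding RNA, ran at 39363, 43146, 30187 and 26448 CPM against 29218, 21138, 23176 and 18711 CPM (log2 fold change 0.58). The other 4 called genes, Fos, Egr1, Spag9 and Id2, were higher in 3 of 4 tumours and were chosen for naming after their values were seen. Fos stood at 1266 CPM in tumour 3 and at 132, 84.8 and 309 CPM in tumours 1, 2 and 4.

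Among the genes that fell, the largest difference was in Hmgb2, a chromatin protein abundant in proliferating cells. It ran at 56.4, 170, 131 and 68.7 CPM in selected cells and at 321, 289, 545 and 1080 CPM in early neurons, without overlap (log2 fold change -2.71, SE 0.32, edgeR adjusted p = 7.73e-10). It passed the filter through the early class alone, and with no filter on low counts its log2 fold change was -2.64 (edgeR adjusted p = 4.2e-10). Anp32e, a chaperone that removes the histone variant H2A.Z, fell by 1.69 on the log2 scale, and Smc2, a condensin subunit, fell by 1.39. Smarca5 and Smarca4, ATPases of chromatin remodelling complexes, fell by 1.26 and 0.78 on the log2 scale, Dek by 0.85 and the Ran cofactor Ranbp1 by 0.87. Anp32b, Arl6ip1 and the histone variant gene H2afv also fell in 4 of 4 tumours.

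The calls depended on single tumours, on the filter and on the block. Leaving out tumour 1, 2, 3 or 4 gave 32, 20, 7 or 3 genes that rose and 27, 18, 15 or 4 that fell. Tumours 1 and 2 alone gave 1 and 1, and tumours 3 and 4 alone gave 40 and 31. With no filter on low counts, over 13330 genes, 11 of the 27 calls held and 16 did not. Mapt, Ank2 and Malat1 were among those that held. Dcx, Celf4, Ppp3ca and Aplp2 were among those that did not (edgeR adjusted p = 0.0507, 0.0530, 0.0706 and 0.219). With no replicate block no gene passed in either direction (33 at an unadjusted p under 0.05), and DESeq2 with the block called 1 rise, Malat1, and 2 falls, Anp32e and Hmgb2. Leaving out cells with 3 or more UMIs of another cell type, a run added after the data were seen, gave 14 rises and 11 falls of 1065 genes tested. Mapt, Ank2, Dcx, Ppp3ca, Celf4, Aplp2 and Malat1 were called in it, while Grik2 was not among the genes tested.

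Set against early neurons with the same limit of 1 mitotic UMI, a comparison added after the data were seen, no gene was called. That early class held 19, 15, 64 and 110 cells in tumours 1 to 4, or 208 in all. Of 949 genes tested, 0 passed with edgeR (0.0%), with 60 at an unadjusted p under 0.05, and 0 passed with DESeq2, with 16. The 12 genes that had risen kept the direction of their fold change, 9 of them at a smaller size, with a median log2 fold change of 0.96 beside 0.97 before. The selected cells were the same and these early neurons were part of the first early class, so a kept direction is favoured. Within tumours, Ank2 was lower in the selected cells of tumour 2 (735 against 1033 CPM) and Dcx in those of tumour 1 (527 against 642 CPM). Mapt, Grik2, Ppp3ca, Celf4, Aplp2 and Malat1 stayed higher in each tumour. The smallest adjusted p was that of Ppp3ca, at 0.0642 (edgeR, log2 fold change 1.05, 95% interval 0.57 to 1.52). For Mapt the interval was 0.51 to 1.70 around 1.10 (edgeR adjusted p = 0.112), and for Ank2 it was 0.32 to 1.31 around 0.82 (edgeR adjusted p = 0.137).

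The falls shrank under the equal limit. Of the 15 genes that had fallen, 12 could be tested and 11 kept their direction, with a median log2 fold change of -0.40 beside -0.99 for all 15 before. Smc4, a condensin subunit that had fallen by 1.22, turned to 0.21 (95% interval -0.45 to 0.87). Anp32e moved from -1.69 to -0.53, and Dek from -0.85 to -0.18, while Smarca4 stayed near its value at -0.80 (edgeR adjusted p = 0.137). Hmgb2, too sparse to test here, ran at 214, 172, 141 and 246 CPM in these early neurons, above the selected cells of the same tumour in 4 of 4. Smc2, also too sparse, ran at 71.4, 258, 60.5 and 128 CPM there and at 348, 254, 87.3 and 149 CPM in selected cells, so its order turned in 3 of 4 tumours. These early sums held 14011, 11615, 49549 and 93602 UMIs in tumours 1 to 4. In tumours 1 and 2 the early levels of both genes rest on a few UMIs, and Hmgb2 in tumour 2 stood at 172 against 170 CPM. The orders of these 2 genes carry no test. Leaving out tumour 1 gave 8 rises (Celf4, Dcx, Dqx1, Egr1, Eprs, Fos, Mapt and Ppp3ca) and 1 fall (Nnat), and leaving out tumour 2 gave 11 rises and 0 falls. Without tumour 3 there was 1 fall, and without tumour 4 there was no call.

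**Figure D3:**
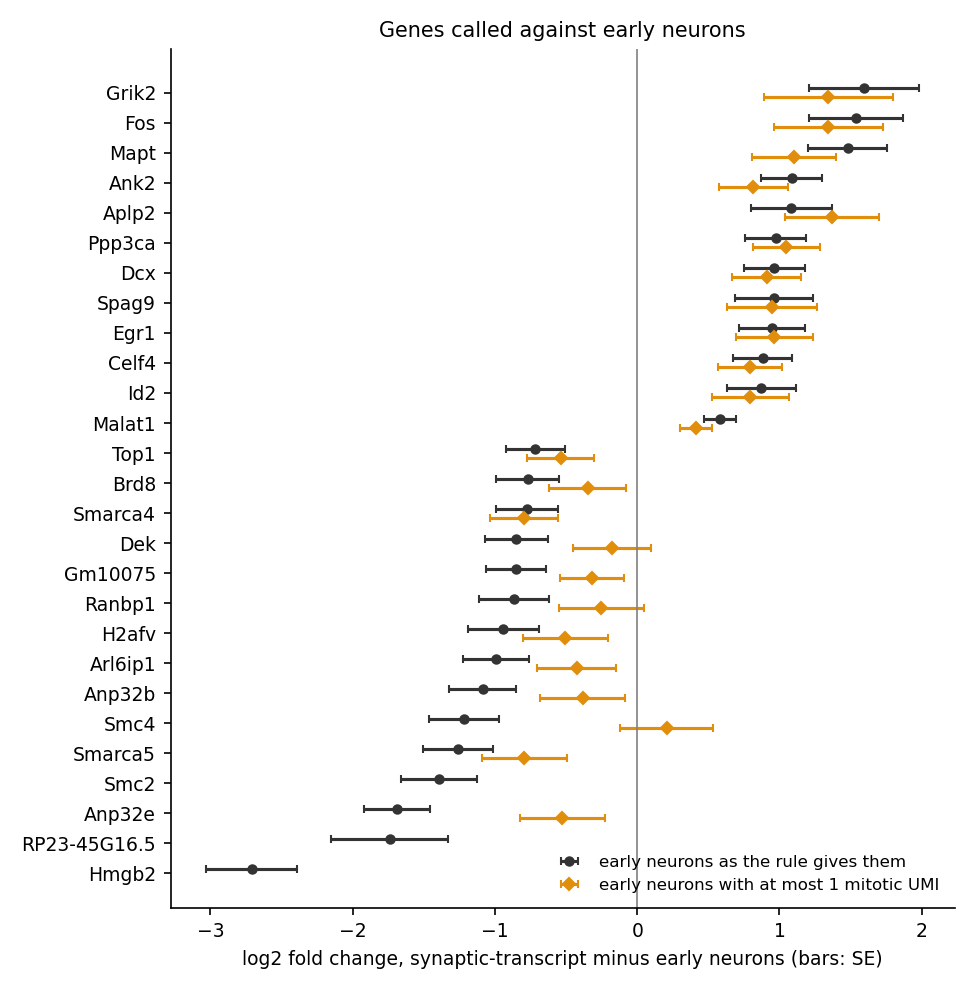
Log2 fold change (horizontal axis, bars are SE) of the 27 genes called between selected neurons and early neurons as the rule gives them (circles), beside the value against early neurons with at most 1 mitotic UMI (diamonds, absent where the gene was not tested). Diamonds of the 12 higher genes stay above 0, 9 of them closer to it than their circles, while most diamonds of the lower genes sit closer to 0 and that of Smc4 lies above it.

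When the selected cells were limited to the 213 that also met the early threshold, and early neurons to at most 1 mitotic UMI, 8 genes rose and 3 fell of 798 tested with edgeR. The 8 were Ank2, Aplp2, Celf4, Dcx, Eprs, Gm26735, Mapt and Ppp3ca, of which 6 are among the 12 above, and the 3 included Nnat and Rps26. This comparison was also added after the data were seen, and it asks for more marker UMIs from the selected cells than from the early ones. Its cells are part of those compared above, so shared calls are favoured.

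Depth and RNA make-up moved with the class. The median was 785, 783, 786 and 1020 UMIs per selected cell and 764, 743, 764 and 877 per early neuron, higher in 4 of 4 tumours (exact two-sided sign-flip permutation test, adjusted p = 0.219 over 7 quantities). Its raw p of 1 in 8 is the smallest that 4 pairs can give, so this test could not pass 0.05 here. Cytosolic ribosomal protein genes summed to 16136, 18124, 28768 and 30824 CPM in selected cells and 17900, 22423, 36141 and 43590 CPM in early neurons, lower in 4 of 4. Immediate-early and heat-shock genes of the dissociation list, which holds Fos and Egr1, were higher in 3 of 4 tumours. The median mitochondrial share was higher in 2 of 4. The part of these differences in the calls was not tested.

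Each synaptic gene was then measured in cells that its own UMIs had not chosen, by rebuilding both classes on the other 5 genes. Syt1 was the gene most raised, at 172, 116, 270 and 97.5 CPM in the rebuilt selected class and 39.2, 31.3, 14.0 and 31.9 CPM in the rebuilt early class, without overlap. These rest on 18, 4, 12 and 8 UMIs against 1, 1, 1 and 6. Syt1 fell under the filter on low counts, so the planned fit gave it no value. In a fit added after the data were seen, which kept the gene regardless, its log2 fold change was 2.28 (95% interval 0.99 to 3.57, edgeR adjusted p = 0.0420). Against early neurons with at most 1 mitotic UMI it was 2.69 (1.021 to 4.36) with an edgeR adjusted p of 0.160. Meg3, which also gave no value in the planned fit of all 4 tumours and was kept regardless in the added one, reached 1.19 (0.15 to 2.23, edgeR adjusted p = 0.235), with 357, 115, 513 and 110 CPM against 372, 31.0, 27.3 and 66.1 CPM, so tumour 1 showed no difference.

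The other 4 genes passed the filter and had smaller values when held out. Snap25 had a log2 fold change of 0.54 (95% interval 0.10 to 0.99, edgeR adjusted p = 0.205), with 483, 416, 757 and 488 CPM against 485, 292, 490 and 274 CPM. Gria2 had 0.40 (-0.04 to 0.84, edgeR adjusted p = 0.536), at 1989, 2141, 1004 and 743 CPM against 2065, 1521, 669 and 402 CPM. Rbfox3 had 0.28 (-0.18 to 0.75) and Grin2b 0.12 (-0.56 to 0.79). Against early neurons with at most 1 mitotic UMI these values were lower, at 0.31 for Snap25 and 0.13 for Gria2, and turned to -0.10 for Rbfox3 and -0.49 for Grin2b. Meg3, kept regardless, had 0.66 there. All 5 of these intervals crossed 0. Grin2b was lower in the selected class of tumour 1, at 185 against 710 CPM, and higher in the other 3 tumours, and without tumour 1 its log2 fold change was 1.15 (edgeR adjusted p = 0.174). None of these 4 genes passed the threshold with edgeR, and the intervals are wide, that of Grin2b running from -1.31 to 0.32 under the equal limit and from 0.24 to 2.05 without tumour 1.

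**Figure D4:**
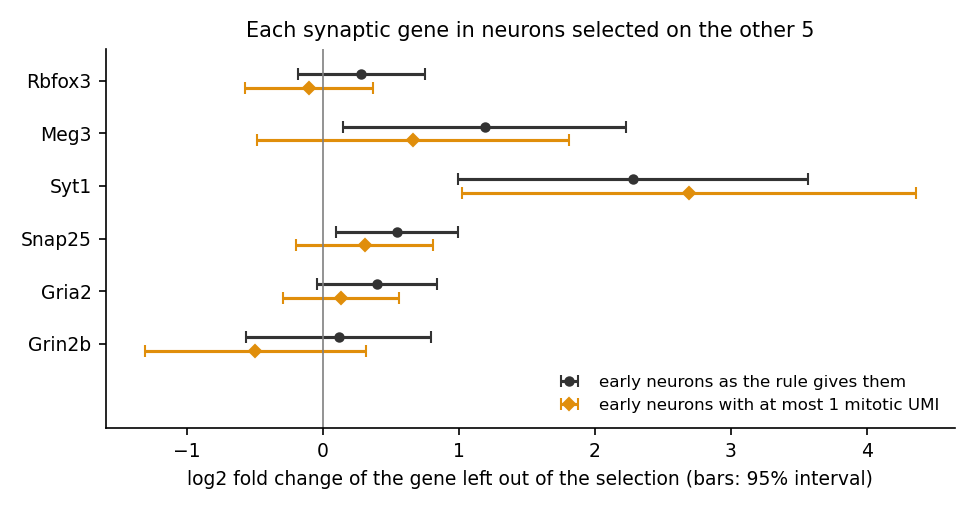
Log2 fold change (horizontal axis, bars are 95% intervals) of each synaptic gene between neuron classes chosen on the other 5 genes, against early neurons as the rule gives them (circles) or with at most 1 mitotic UMI (diamonds). Syt1 lies above 0 in both comparisons, and the intervals of Gria2, Rbfox3 and Grin2b cross 0.

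The wider synaptic lists were sparse in these shallow libraries. Of 16 ionotropic and metabotropic glutamate receptor genes in the tables, 12 had a UMI in the selected cells and 2 passed the filter. Gria4, an AMPA receptor subunit, had 104 UMIs, at 508, 594, 284 and 183 CPM in tumours 1 to 4 against 281, 321, 140 and 97.2 CPM in early neurons, higher within each tumour while the groups overlapped (log2 fold change 0.91, SE 0.31, edgeR adjusted p = 0.0872). Under the equal mitotic limit its log2 fold change was 0.56 (edgeR adjusted p = 0.850). The obligatory NMDA subunit gene Grin1 had 10 UMIs. Of 41 release genes 40 had a UMI and 6 were tested against early neurons, with 0 called and a median log2 fold change of 0.22 beside -0.02 over all genes. Under the equal mitotic limit the median was 0.11 over 5 genes beside 0.02 over all, and the summed list was higher in 2 of 4 tumours. The vesicular transporter gene Slc17a6 had 112 UMIs (log2 fold change -0.16, edgeR adjusted p = 0.821). Syp, a vesicle membrane protein, had 54 UMIs in selected cells and 37 in early neurons.

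Of 37 postsynaptic and synaptic adhesion genes in the tables, 6 were tested against early neurons, with 0 called, 3 positive and a median log2 fold change of 0.18 beside -0.02 over all genes. Under the equal mitotic limit the median was 0.10 over 5 genes beside 0.02 over all. Nrxn2, a presynaptic neurexin, ran at 404, 339, 262 and 172 CPM in selected cells and 161, 289, 55.9 and 91.8 CPM in early neurons, higher within each tumour (log2 fold change 1.05, edgeR adjusted p = 0.0886, and 0.82 with an edgeR adjusted p of 0.805 under the equal limit). Some low genes were found mostly in selected cells, in sums of 274828 UMIs against 312723 in early neurons and 753464 in mitotic cells. Lrrtm2, a postsynaptic adhesion protein, had 32 UMIs against 5 and 2, and Nrxn3 had 26 against 4 and 1. The axonal adhesion gene Cntn1 had 35 against 9 and 2. These 3 genes did not pass the filter and were picked after their values were seen. With no filter on low counts, and in tumours 3 and 4 alone, Lrrtm2 was among the genes that rose over early neurons with edgeR.

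Compared with mitotic cells, which had 3 or more mitotic UMIs and a synaptic sum of at most 1, the selected neurons differed broadly. The mitotic class held 627 cells. Of 1550 genes tested with edgeR, 209 were higher (13.5%) and 287 lower (18.5%), or 32.0% in all, and DESeq2 called 127 and 141. With upper-quartile scaling the higher share of the calls was 53.0% in place of 42.1%. Without tumour 4 there were 120 higher and 100 lower, and tumours 1 and 2 alone gave 105 and 115. With no replicate block the counts were 65 and 75. Mitotic genes and the synaptic sum each set both classes of this contrast, so lower division genes are no finding, and a rise of neuronal genes that travel with the synaptic sum is favoured by the rule.

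Cytoskeletal genes were higher as a group beside mitotic cells. The 45 measured genes summed to 28587, 25475, 38263 and 40217 CPM in selected cells and 13592, 15771, 18410 and 19534 CPM in mitotic cells. Of 33 tested, 26 rose and 3 fell, where 13.5% of all tested genes rose and 18.5% fell. The median log2 fold change was 1.18 beside -0.10 over all genes. In this contrast low genes can pass the filter through the class where they are high. Mapt stood at 53.7, 71.7, 54.1 and 23.1 CPM in mitotic cells. Stmn2, a tubulin-binding protein of growing axons, ran at 1505, 1640, 1353 and 1569 CPM in selected cells and 340, 699, 301 and 286 CPM in mitotic cells (log2 fold change 1.95, edgeR adjusted p = 1.77e-07). In early neurons Stmn2 stood at 1003, 1638, 1539 and 1420 CPM, which overlapped the selected cells. Kif5a, an axonal transport motor, had a log2 fold change of 2.64 over mitotic cells and Mapt 3.61. The 3 that fell were Kif5b, Tuba1b and Tubb5, a broadly expressed motor and broadly expressed tubulins. Tubulin genes are near-identical, and how reads shared between copies were counted is not given in the sources used here.

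Many neuronal transcription and RNA-binding genes were also higher than in mitotic cells, where 13.5% of all tested genes rose and the median was -0.10. Of 17 tested early postmitotic genes 15 rose, with a median log2 fold change of 1.13, among them Elavl4 (log2 fold change 1.97), Myt1 (2.26) and Sox4 (1.13). Of 12 tested neuronal RNA-binding genes 8 rose and 2 had negative values, with a median of 0.86 and with Celf4 at 2.23 and Celf2 at 1.10. Of 12 tested granule identity genes 6 rose (Nfib, Nfix, Pax6, Reln, Uncx and Zic1) and 2 had negative values, with a median of 0.46. Zic1, a transcription factor kept throughout the granule lineage, ran at 1392, 1810, 2161 and 2222 CPM against 894, 806, 740 and 890 CPM in mitotic cells, without overlap (log2 fold change 1.10, edgeR adjusted p = 3.64e-05).

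Few synaptic and channel genes could be tested against mitotic cells. A low gene can pass the filter through the class where it is high, so the counts of tested genes that rose do not speak for their lists. Gria4 was higher by a log2 fold change of 2.33 and Grik2 by 2.43, the 2 glutamate receptor genes tested of 16. Grik2 stood at 0, 89.6, 60.1 and 31.5 CPM in mitotic cells. Of 6 release genes tested of 41, 5 rose, led by the active-zone scaffold gene Ppfia2 at 2.53, with Slc17a6 at 0.90. Of 6 postsynaptic and adhesion genes 4 rose, among them Cadm3, Dlgap4 and Nrxn2, and 1, Cadm1, fell. Of 34 channel genes 3 were tested and rose, among them the potassium channel gene Kcnc1 and the calcium channel subunit gene Cacna2d1.

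The summed SHH list and many ribosomal protein genes were lower than in mitotic cells. The 17 measured members of the SHH list summed to 1740, 2771, 2248 and 2589 CPM in selected cells and to 3219, 4803, 4234 and 4431 CPM in mitotic cells, without overlap. Only 4 passed the filter, which low genes can do through the class where they are high, and these fell: Ccnd1 and Ccnd2, cyclins that drive entry into the cell cycle, Mycn, a growth-promoting transcription factor, and Sfrp1, a secreted SHH target. Ccnd1 ran at 65.8, 141, 109 and 149 CPM in selected cells and 340, 305, 481 and 419 CPM in mitotic cells, values given as a description since the rule chose dividing cells. Sfrp1 ran at 621, 1499, 1026 and 1008 CPM against 1073, 2186, 1305 and 1676 CPM, lower within each tumour (log2 fold change -0.70). Of 49 tested ribosomal protein genes 33 fell and 0 rose, where 18.5% of all tested genes fell, with a median log2 fold change of -0.69 beside -0.10 over all. In tumours 1 and 2 alone Rpl14, Rpl32 and Rps15a were among those that turned to slightly positive values. Against early neurons the SHH genes had no call among 3 tested, with a median log2 fold change of -0.31.

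**Figure D5:**
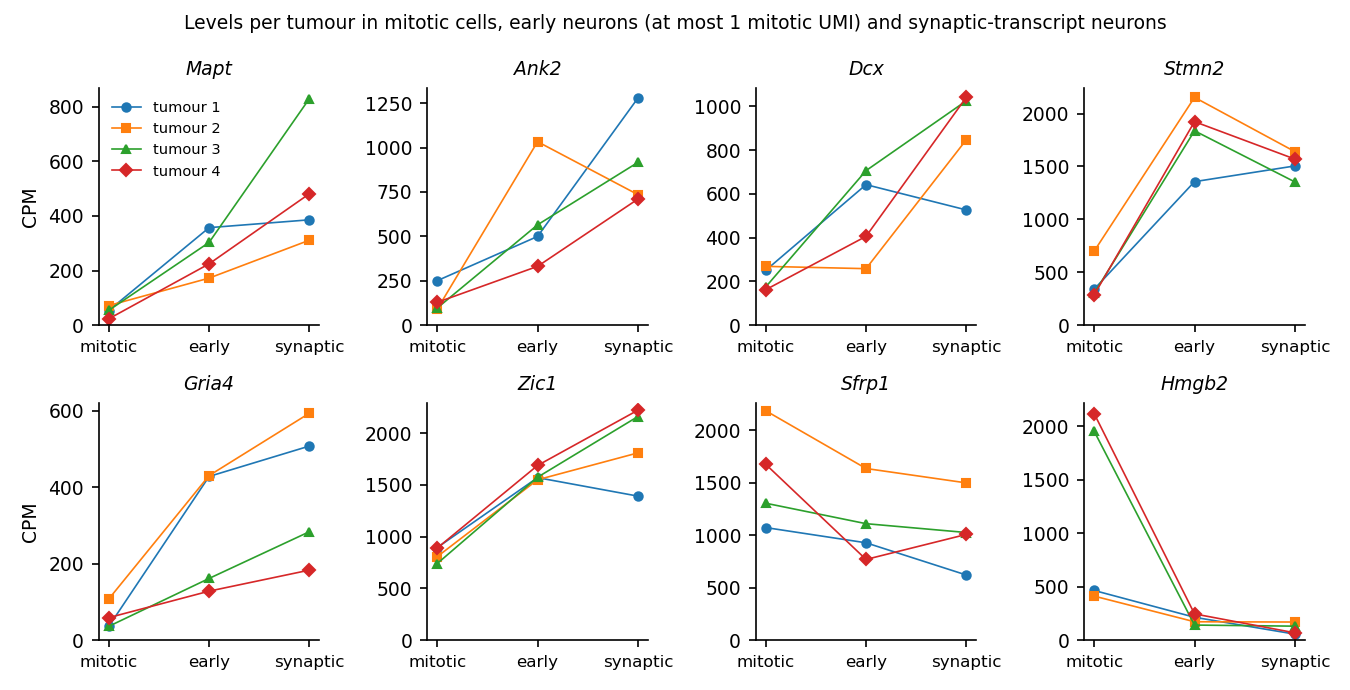
Level in CPM (vertical axis) of 8 genes in mitotic cells, early neurons with at most 1 mitotic UMI and synaptic-transcript neurons, with 1 line per tumour. Mapt is highest in the synaptic-transcript neurons of all 4 tumours, Stmn2 is already raised in early neurons, and Hmgb2 and Sfrp1 are highest in mitotic cells.

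Within the selected class, some lists moved with the synaptic sum and others did not. Over the 4 tumours together, the mature granule list summed to 447 CPM in cells with a sum of 3, 944 CPM at 4 or 5 and 1308 CPM at 6 or more. The SHH list went from 2834 to 2227 and 1640 CPM. The release list stood at 3764, 4392 and 4045 CPM and the cytoskeletal list at 33287, 35179 and 31874 CPM, without a steady change. The SHH change was seen in tumours 1, 3 and 4 (2377 to 1470, 3208 to 1717 and 3222 to 1553 CPM from the lowest to the highest group) and not in tumour 2 (2312 to 2641 CPM). Cells just outside, with a sum of 2, had 498 CPM of the mature list and 3399 CPM of the SHH list. Median depth was 786, 762 and 996 UMIs in the 3 groups, so the group with the highest sums was also the deepest. Astrocyte genes stood at 711, 647 and 1928 CPM in the 3 groups and oligodendrocyte genes at 998, 759 and 1529 CPM, and the part of glial transcripts in these changes was not tested. These groups were cut from the same counts and carry no test.

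The 68 selected cells with fewer than 3 early UMIs differed from the other 213. Their cytoskeletal list summed to 19189, 21396, 23218 and 21925 CPM in tumours 1 to 4, against 30744, 27428, 43055 and 45661 CPM, with no overlap. Their SHH list stood at 2972, 3057, 3975 and 3995 CPM against 1457, 2634, 1698 and 2170 CPM, again with no overlap. Oligodendrocyte genes were also higher in them within each tumour, at 1259, 961, 994 and 5943 CPM against 728, 711, 374 and 595 CPM, as were astrocyte genes. The part of glial transcripts in these 68 cells was not tested, nor was whether each of them is a neuron.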

How the data were processed

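Single-cell RNA was measured in 4 tumours of 1 labelled group. The deposited tables hold whole-number UMI counts per gene and barcode, with no normalization by the authors, over 15002 genes. The submitters' processing notes name STAR and mm10 without saying how they were used, and the barcode filter is not given in the sources used here. Another 6 tables (11203 cell columns) have cell names that fit none of the labelled samples and were left aside. The members, gene lists and tests were chosen with earlier results of these data known. The rule for naming genes took list members and, per direction, up to 10 genes with the largest fold change that passed an adjusted p of 0.05, reached a mean of 50 CPM and had 1 sign in 4 of 4 tumours.

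Counts were summed per tumour and class and compared in edgeR 4.0.16 (R 4.3.3) with TMM scaling, filterByExpr by class and a block for tumour. The 2 summed profiles within a block share an animal, and their deviations from the class means correlated over 1209 genes with r of 0.58, 0.49, 0.60 and 0.71. Standard errors were obtained by dividing the log2 fold change by the root of the F statistic. No tumour was a repeat deposit of another, as summed counts of each pair differed by at least 3.50 times sampling noise (chi-square per degree of freedom). DESeq2 1.42.0 was an alternative. Scrublet (scanpy 1.11.5, expected share 6%) marked 17 of the 2288 filtered cells, 2 of them selected, and these were kept, with their removal as an alternative. Gene positions are from GENCODE M21 (GRCm38) and promoters from RefSeq. The edgeR step was tested on simulated data for the comparison with early neurons (1123 genes). Among planted genes that passed the filter, it recovered 100% of 50 4-fold rises and of 24 4-fold falls. It recovered 58.0% of 50 2-fold rises and 39.3% of 28 2-fold falls. Planted genes lost to the filter, which were mostly falls, are not in these shares. The simulated spread between samples was set by hand and not taken from these data. False calls made up 2.56%. The values of some listed genes are not reported here.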

Additional observations from a re-analysis of the deposited data

Results flagged for a closer look

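In 62 values per tumour tested for a sample far from the other 3, 3 stood apart, and chance alone sets apart about 1 in 20. The median depth of the selected cells was 1020 UMIs in tumour 4 and 783 to 786 in the others. DNA replication genes summed to 2347 CPM in the selected cells of tumour 2 and to 1512 to 1608 CPM in the others. Endothelial genes summed to 320 CPM in tumour 1 and to 0 to 43.7 CPM in the others, and only 1 selected cell of tumour 1 held 3 or more endothelial UMIs.

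Outside the filtered cells, 126 barcodes met the synaptic and mitotic rule but held over 10% mitochondrial UMIs. They were 80 in tumour 1 and 46 in tumour 2, of 933 barcodes over that limit in all 4 tumours. None was found in tumours 3 and 4, which had 5 and 17 barcodes over the limit.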

How the results depend on the processing

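Beside a mean share of selected cells of 15.2%, the share was 6.47% without Gria2, 9.29% after thinning, 10.03% at 4 synaptic UMIs and 23.8% at 2. Leaving out Gria2 lowered it in each tumour, to 12.4%, 5.15%, 4.63% and 3.66%. Other settings gave 10.3% to 17.9%. Beside 12 higher and 15 lower genes against early neurons, the counts were 1 and 2 with DESeq2, 0 and 0 with no replicate block, 1 and 1 in tumours 1 and 2 alone, 40 and 31 in tumours 3 and 4 alone, 5 and 5 at 1000 UMIs and 500 genes, 6 and 7 without Meg3, 1 and 5 without Gria2 and 0 and 0 under the equal mitotic limit. Upper-quartile scaling gave 19 higher. Lower genes numbered 33 with no filter on low counts, 3 after thinning, 8 at 4 synaptic UMIs, 24 with no mitochondrial limit and 3 where both thresholds were asked for. Leaving out a tumour gave 3 to 32 higher and 4 to 27 lower. Beside 209 higher and 287 lower than mitotic cells, the counts were 127 and 141 with DESeq2, 65 and 75 with no replicate block, 105 and 115 in tumours 1 and 2 alone, 486 and 446 in tumours 3 and 4 alone, 105 and 137 after thinning, and 557 lower with no filter. Leaving out a tumour gave 120 to 270 higher and 100 to 267 lower. Under the equal limit it gave 0 to 11 higher and 0 to 1 lower, and tumours 1 and 2 alone gave 1 higher. Held-out Syt1 had 2.69 under that limit, no longer past the threshold. Smc4 turned to 0.21 under that limit and 0.0242 with both thresholds. In tumours 1 and 2 alone Rpl14 (0.0451), Rpl32 (0.0293) and Rps15a (0.23) were among those that turned. Fewer genes were tested after thinning, at 1000 UMIs, at 4 synaptic UMIs, with both thresholds, under the equal limit, without tumour 4 and in tumours 1 and 2 alone, and the cause of these moves was not tested. Outside the genes of the rule, the filter on low counts left 1209 of 15002 genes to test.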
